A study of Homo sapiens with 16 samples.

Results

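The HOX cluster genes are the homeodomain transcription factors that lie in the HOXA, HOXB, HOXC and HOXD clusters. Members were taken as every row of both deposited tables whose Ensembl identifier carries a symbol made of HOX, a cluster letter and a number. This gave 15 of 26410 rows, with 7 genes of the HOXC cluster on chromosome 12 (HOXC4, HOXC5, HOXC6, HOXC8, HOXC9, HOXC10 and HOXC11) and 8 genes of the HOXD cluster on chromosome 2 (HOXD1, HOXD3, HOXD4, HOXD8, HOXD9, HOXD10, HOXD11 and HOXD13). The other 24 of the 39 human HOX symbols, among them all of HOXA and HOXB, had no row and were not analysed here.

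RNA was sequenced in SH-SY5Y cells, a human neuroblastoma line of sympathetic neuroblast origin, in which TRPM2, a calcium-permeable cation channel, was targeted with Cas9. The libraries labelled TRPM2 KO came from single-cell clones KO11 and KO28, made with a TRPM2 guide. The control libraries came from single-cell clones Scr13 and Scr16, made with a scrambled guide, and both genotypes also received a donor vector with GFP and puromycin markers and were grown under puromycin. Each clone was kept for 24 h in regular medium or with doxorubicin, an anthracycline that poisons topoisomerase II and breaks DNA, at 0.3 µM per the sample labels (the series design text gives 3 µM), in 2 replicates per condition, for 16 libraries. With 2 clones per genotype, an effect of the guide and a difference that clones already had cannot be told apart beyond this number of clones, and p-values over libraries measure the spread between libraries.

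TRPM2 reads did not follow the labels. In untreated cells TRPM2 was at 1.93 and 2.23 normalized CPM (reads of the gene scaled to the effective size of the library, as deposited) in KO11 and at 1.41 and 2.19 CPM in KO28, against 0.118 and 0.115 CPM in Scr13 and 0 reads in both Scr16 libraries. These groups did not overlap, and TRPM2 passed the filter on low values only through the libraries labelled TRPM2 KO, so no test is given. After doxorubicin the values were 1.22 and 1.83 CPM in KO11, 1.37 and 0.658 CPM in KO28, 0.0594 and 0.0631 CPM in Scr13, and 1.33 and 0.390 CPM in Scr16, and these groups overlapped. The files give 1 count per gene, so they do not show which exons the reads came from. The paper reports that the start of the TRPM2 coding sequence was removed and the rest frameshifted. It also reports that the cells were checked by RT-PCR and Western blotting. The targeted groups are named by their label, TRPM2 KO, throughout.

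HOX proteins set the identity of cells along the body axis, and the genes of a cluster are switched on in the order in which they lie on the chromosome, from the low-numbered genes expressed furthest to the head to the high-numbered genes expressed in the tail and limb. They bind DNA with TALE cofactors of the PBX and MEIS families. Polycomb complexes hold the clusters silent and trithorax complexes keep them active, and retinoic acid is the classical inducer of their low-numbered end. In the sympathetic lineage, HOXC9 has been linked to neuronal differentiation and cell cycle exit of neuroblastoma cells.

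Per kilobase of exon, 5 members stood above the rest. HOXC4 had a mean of 14.8 CPM per kb over the 16 libraries and HOXD9, a posterior gene of the trunk and limb, had 14.02 CPM per kb. HOXC4 was the higher of this pair in 11 of 16 libraries, some Scr libraries among them. The order of the group means differed between genotypes. In untreated cells HOXC4 and HOXD9 were at 14.8 and 11.6 CPM per kb in libraries labelled TRPM2 KO and at 14.03 and 15.3 CPM per kb in Scr libraries. HOXD8 followed with 6.53 CPM per kb, and was below HOXD9 in 16 of 16 libraries. HOXC6, a marker of the brachial spinal cord, had 4.08 CPM per kb and HOXC9, a gene of the thoracic level, had 2.90 CPM per kb.

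The next genes were below 1 CPM per kb on average. HOXD1 had 0.702 CPM per kb, HOXC5 had 0.636 CPM per kb, HOXD10 had 0.569 CPM per kb and HOXD3 had 0.362 CPM per kb, and HOXD1 was above HOXC5 in 7 of 16 libraries, whereas HOXD10 was above HOXD3 in 13 of 16. HOXD13, HOXD4, HOXC10 and HOXC8 lay between 0.268 and 0.307 CPM per kb. HOXD11 and HOXC11 were at the edge of detection, each with reads in 2 of 16 libraries. With 10481177 to 25086085 reads assigned to genes per library, 0 reads allow a level of up to 0.118 to 0.285 CPM, which covers counting error only.

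**Figure D1:**
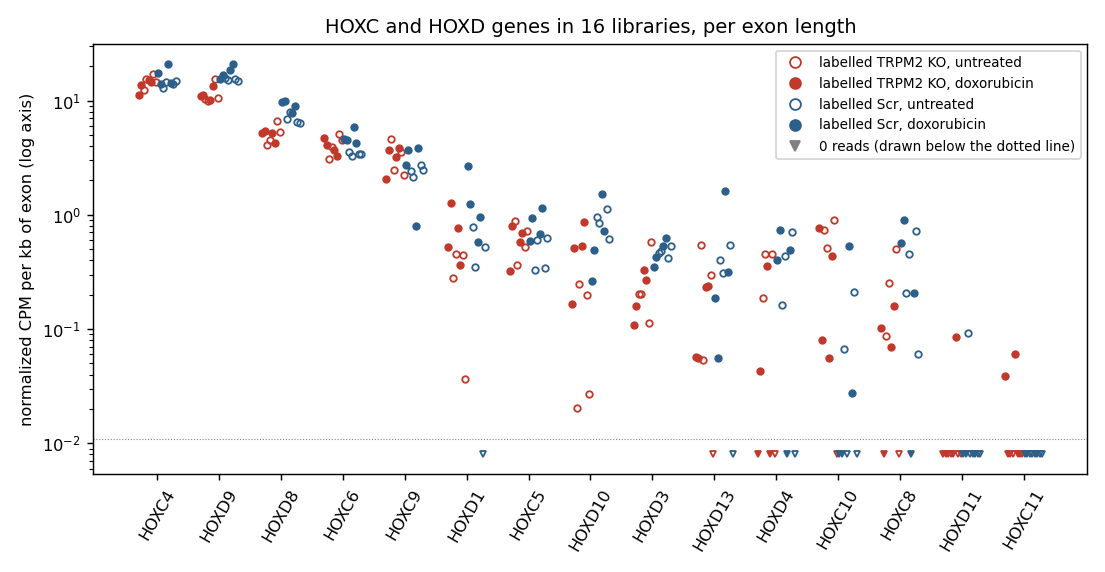
Normalized CPM per kilobase of exon on a log axis for the 15 HOX genes, with 1 point per library; red marks libraries labelled TRPM2 KO, blue marks Scr libraries, open symbols are untreated and filled symbols doxorubicin, and triangles under the dotted line are libraries with 0 reads. HOXC4 and HOXD9 are highest with means of 14.8 and 14.02 CPM per kb, and HOXD11 and HOXC11 have no reads in most libraries.

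In both clusters most reads fell on a pair of genes, in shares that are not corrected for length. HOXC4 made up a median of 66.0% of the summed HOXC CPM over the 16 libraries (range 57.2% to 70.1%) and HOXC6 a median of 23.5%. In the HOXD cluster, HOXD9 made up a median of 54.6% (range 46.0% to 61.4%) and HOXD8 a median of 35.1%. The abundant HOXD genes thus sat in the middle of the cluster, with HOXD9 and HOXD8 starting 29.8 and 36.8 kb from the first base of HOXD13, and the genes on both sides of them were low. Some of these counts are uncertain, because gene models overlap. On the same strand, 80.5% of the exon bases of HOXD4, 62.2% of those of HOXD3 and 59.9% of those of HOXC5 lie in exons of another gene model, and 58.1% of the exon bases of HOXD1 lie opposite exons of HAGLR or of a further antisense model. HOXD8 and HOXD9 share no exon base with another gene in GENCODE 29, and HOXD10 shares 16.8%, with HOXD11. HOXC4 shares 17.8% and HOXC6 15.7% on the same strand, each with other HOXC genes.

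**Figure D2:**
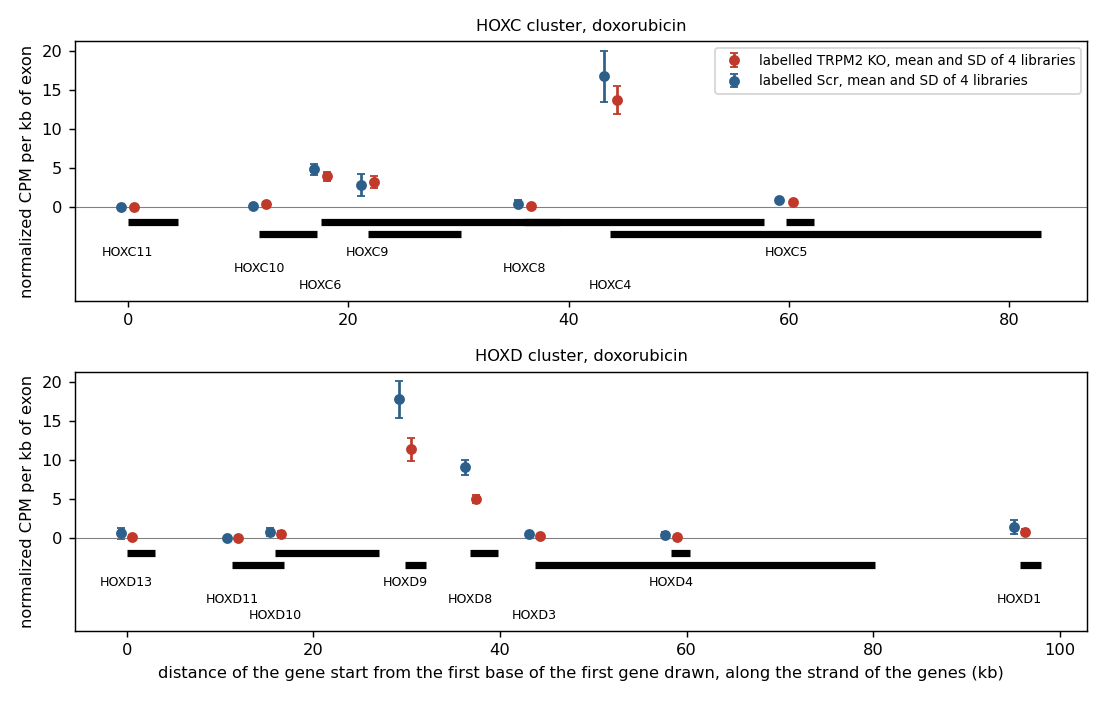
Mean and SD of normalized CPM per kilobase of exon in 4 doxorubicin-treated libraries per genotype, drawn at the distance of each gene's start from the start of the first gene shown, in kb along the strand of the genes; black bars span each gene model. HOXD9 and HOXD8 stand above their neighbours, and at both genes the red points of libraries labelled TRPM2 KO lie below the blue Scr points, whereas at HOXC4 the error bars overlap.

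The comparison of libraries labelled TRPM2 KO with Scr libraries was made separately in untreated and in doxorubicin-treated cells, from separate libraries of the same 4 clones. In untreated cells 1 of the 8 HOX genes that passed the filter (at least 1 CPM in at least 4 of 8 libraries) was called, HOXD10, which passed that filter only through the Scr libraries, where it was higher. With no filter HOXD10 was again the 1 HOX gene called, of 14 tested. In doxorubicin-treated cells 2 of 9 were called, and HOXD8 and HOXD9 were lower. Of all genes tested, 4.84% were called in untreated cells and 8.69% after doxorubicin, and 2.54% and 4.17% were called in the lower direction. No HOXC gene was called in either treatment by limma, with 0 of 4 at an unadjusted p under 0.05 in untreated cells and 1 of 4, HOXC4, after doxorubicin. edgeR and DESeq2 on the recovered reads called no HOXC gene either.

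HOXD8 (chr2:176129694-176132695, plus strand, GRCh38) was at 13.7 and 14.2 CPM in KO11 and at 13.5 and 11.1 CPM in KO28 after doxorubicin, against 25.7 and 25.9 CPM in Scr13 and 20.2 and 23.4 CPM in Scr16. The highest library labelled TRPM2 KO was below the lowest Scr library. Within each genotype the clones separated too, with both KO11 libraries above both KO28 libraries and both Scr13 libraries above both Scr16 libraries. Means were 13.1 ± 1.37 CPM and 23.8 ± 2.63 CPM (SD, n = 4 each), a ratio of 0.552. The log2 fold change was -0.81 (SE 0.150, adjusted p = 8.88e-04 in limma), and the two-sided exact permutation p was 0.0286, the smallest that 4 against 4 libraries allow. In bulk RNA, fewer cells that express the gene and less RNA per cell cannot be told apart. In untreated cells HOXD8 was at 10.8 and 11.9 CPM in KO11, 17.2 and 14.1 CPM in KO28, 18.2 and 21.0 CPM in Scr13, and 17.1 and 16.7 CPM in Scr16. Only the first KO28 library lay among the Scr libraries, and the difference of -0.42 (SE 0.160) did not pass with an adjusted p of 0.180.

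HOXD9 (chr2:176122720-176124937, plus strand) was lower as well after doxorubicin. It was at 20.3 and 20.8 CPM in KO11 and at 18.8 and 25.2 CPM in KO28, against 28.9 and 31.1 CPM in Scr13 and 34.3 and 39.1 CPM in Scr16. Again the groups did not overlap, and the means of 21.3 ± 2.72 and 33.4 ± 4.44 CPM (SD, n = 4 each) gave a ratio of 0.638. The log2 fold change was -0.62 (SE 0.133), with an adjusted p of 0.00341 in limma. The call was lost without clone KO11 (adjusted p = 0.0796) and without clone Scr16 (adjusted p = 0.0550), with differences of -0.58 and -0.48. In untreated cells HOXD9 was at 19.4 and 18.6 CPM in KO11, 29.1 and 19.6 CPM in KO28, 29.4 and 28.5 CPM in Scr13, and 28.7 and 27.5 CPM in Scr16. Only the first KO28 library, at 29.1 CPM, lay among the Scr libraries. The untreated difference was -0.40 (SE 0.138, adjusted p = 0.121 in limma). Without that library it was -0.55 and passed, with an adjusted p of 0.0128. Since that library was the one that went against the difference, this fit is no support. Untreated HOXD9 was called in 2 of 21 alternatives, this one and the fit without clone KO28.

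HOXD10 (chr2:176108790-176119942, plus strand), whose mouse counterpart acts in lumbar motor neurons, was the HOX gene called in untreated cells. It had 0.0551 and 0.663 CPM in KO11 and 0.536 and 0.0729 CPM in KO28, against 2.56 and 2.30 CPM in Scr13 and 3.01 and 1.65 CPM in Scr16. The counts behind these values were 21 reads over the 4 libraries labelled TRPM2 KO and 183 reads over the 4 Scr libraries, so every Scr library was above every library of the other group. A gene that the filter admits in this way had to differ, so the fit with no filter is the one to read. There HOXD10 differed by -1.36 on the log2(CPM + 1) scale, with an adjusted p of 0.0186 in limma. The adjusted p was 0.00418 with the filter, under which HOXD10 was not tested without any one Scr library, and the count of called HOX genes was then 0. Since the pseudocount shrinks differences of low genes, edgeR on the recovered reads gave a larger value, -2.81.

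After doxorubicin the HOXD10 difference was small against its spread. It was at 0.448 and 1.39 CPM in KO11, 1.44 and 2.33 CPM in KO28, 0.713 and 1.32 CPM in Scr13, and 4.09 and 1.95 CPM in Scr16. Both Scr13 libraries lay below both KO28 libraries, and the difference of -0.27 (SE 0.345) had an adjusted p of 0.736. Its sign turned to 0.0184 without the first Scr16 library.

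The RefSeq promoter windows (GRCh38.p14, 250 bases before to 50 after the start site) of HOXD8 and HOXD10 are shown because these are the called genes with a window, and that of HOXD1 because it overlaps the promoter of the antisense RNA described next. Capitals mark CACGTG, the palindromic E-box core, so that both strands give the same match; the windows were also searched on both strands for TGATNNAT (a PBX and HOX composite site), TAATTA (a homeodomain core) and AGGTCA (a nuclear receptor half-site), with no match in these 3 windows. The HOXD8 window is chr2:176129455-176129754, the HOXD10 window chr2:176116528-176116827 and the HOXD1 window chr2:176188418-176188717, all on the plus strand.
HOXD8: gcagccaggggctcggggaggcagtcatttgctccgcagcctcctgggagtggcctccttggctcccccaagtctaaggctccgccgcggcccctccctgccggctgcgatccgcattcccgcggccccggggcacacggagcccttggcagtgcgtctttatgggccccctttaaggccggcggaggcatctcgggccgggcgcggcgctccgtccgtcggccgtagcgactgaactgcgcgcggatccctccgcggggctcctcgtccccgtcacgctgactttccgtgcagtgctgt
HOXD10: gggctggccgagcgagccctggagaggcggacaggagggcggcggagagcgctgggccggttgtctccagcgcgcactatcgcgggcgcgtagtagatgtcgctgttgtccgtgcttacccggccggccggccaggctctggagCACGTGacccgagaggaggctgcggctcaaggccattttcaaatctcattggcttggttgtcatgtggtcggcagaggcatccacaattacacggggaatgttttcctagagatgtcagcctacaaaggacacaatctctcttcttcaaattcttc
HOXD1: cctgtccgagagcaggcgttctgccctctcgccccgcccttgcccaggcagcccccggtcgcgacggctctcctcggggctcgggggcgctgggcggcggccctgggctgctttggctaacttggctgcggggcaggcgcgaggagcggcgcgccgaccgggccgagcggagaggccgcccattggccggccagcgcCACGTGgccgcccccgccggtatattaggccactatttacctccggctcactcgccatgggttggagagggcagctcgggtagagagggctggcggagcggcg

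The HOXD10 window holds CACGTG 106 bases before the start and the HOXD1 window 53 bases before it, whereas the HOXD8 window holds none of the 4 motifs. CACGTG was present in 5 of the 7 HOXD windows that the table holds (HOXD1, HOXD3, HOXD10, HOXD11 and HOXD13) and in 7.20% of all 34796 promoter windows. That share is not matched for CpG content. The 5 windows hold 23 (HOXD10) to 36 (HOXD1) CpG dinucleotides, and 66.1% to 88.7% of all windows hold as many or fewer. The HOXD8 window, without CACGTG, holds 34. CACGTG was present both in the window of a gene that was called, HOXD10, and in windows of genes that were not. HOXC4 and HOXC5 share 1 identical window with 15 CpG dinucleotides, and the 7 HOXD windows hold from 4 (HOXD4) to 36 (HOXD1). A match is a description of the letters and not of binding.

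The remaining HOXD genes that were tested did not pass. HOXD3 had a difference of -0.51 (SE 0.282, adjusted p = 0.454 in limma) in untreated cells. After doxorubicin HOXD3 was at 0.384 and 0.567 CPM in KO11 and at 1.18 and 0.957 CPM in KO28, against 1.25 and 1.51 CPM in Scr13 and 1.90 and 2.21 CPM in Scr16. These groups did not overlap, with a difference of -0.63 (SE 0.292) and an adjusted p of 0.230, and in both treatments 4 Scr libraries and 1 library labelled TRPM2 KO were at 1 CPM or more. Groups without overlap were found for 13.2% of all genes tested after doxorubicin and for 9.29% of those tested in untreated cells. HOXD1, tested after doxorubicin, had a difference of -0.53 (SE 0.334, adjusted p = 0.408).

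The summed HOXD level, which is mostly HOXD9 and HOXD8, was 38.0 ± 7.76 CPM in untreated libraries labelled TRPM2 KO and 52.9 ± 3.02 CPM in untreated Scr libraries, and 38.6 ± 2.21 CPM and 65.4 ± 3.21 CPM after doxorubicin (SD, n = 4 each). The untreated groups overlapped through the first KO28 library, at 49.5 CPM, whereas after doxorubicin the highest library labelled TRPM2 KO, at 41.0 CPM, was below the lowest Scr library, at 62.9 CPM. The summed HOXC level was 63.4 ± 7.82 and 56.1 ± 2.22 CPM in untreated cells and 58.6 ± 3.78 and 69.8 ± 8.76 CPM after doxorubicin, in the same order of groups.

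**Figure D3:**
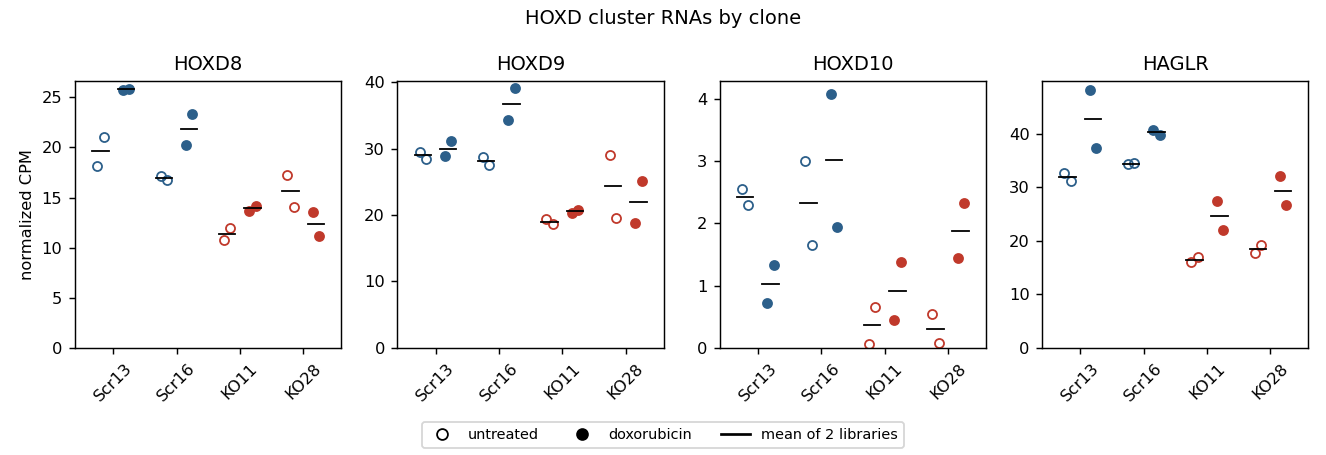
Normalized CPM of HOXD8, HOXD9, HOXD10 and HAGLR in each clone, with 1 point per library, open for untreated and filled for doxorubicin, and a black line at the mean of 2 libraries; blue clones are Scr and red clones are labelled TRPM2 KO. After doxorubicin every red point of HOXD8, HOXD9 and HAGLR lies below every blue point, whereas the HOXD10 points overlap.

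Differences of the HOXC genes lay on both sides of 0. HOXC4 was at 33.9 to 46.3 CPM in untreated libraries labelled TRPM2 KO and at 34.95 to 40.5 CPM in untreated Scr libraries, with a difference of 0.071 (SE 0.110, 95% interval -0.16 to 0.30) and an adjusted p of 0.846 in limma. After doxorubicin it was at 30.3 to 41.5 CPM and 38.1 to 57.4 CPM, with a difference of -0.27 (SE 0.131, adjusted p = 0.245). With 1 library left out, this difference ranged from -0.35 to -0.16. HOXC6 differed by 0.25 (SE 0.165, adjusted p = 0.553) in untreated cells and by -0.27 (SE 0.164, adjusted p = 0.388) after doxorubicin. HOXC9 differed by 0.29 (95% interval -0.18 to 0.77) and 0.28 (95% interval -0.37 to 0.93), intervals wide enough to hold a difference of the size seen at HOXD9 in the higher direction. HOXC5 differed by 0.19 and -0.28, and neither passed.

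HOXC10, a gene of the lumbar level, was too low for the filter in either comparison. It was at 1.71 and 1.20 CPM in KO11 and at 2.08 and 0 CPM in KO28 in untreated cells, against 0.157 and 0 CPM in Scr13 and 0.491 and 0 CPM in Scr16. Replicates of KO28 differed as much as the genotypes. HOXC10 was therefore not tested between genotypes under the filter, and the fits with no filter did not call it. HOXC8 had 35 reads in the 8 libraries labelled TRPM2 KO and 100 reads in the 8 Scr libraries, and HOXD4 had 35 and 72 reads. HOXD13, the gene of the digits and genital tubercle, had 55 and 113 reads, 38 of the latter in the first Scr16 library after doxorubicin. HOXC11 had 5 and 0 reads and HOXD11 had 3 and 5 reads, so these genes allow no comparison.

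**Figure D4:**
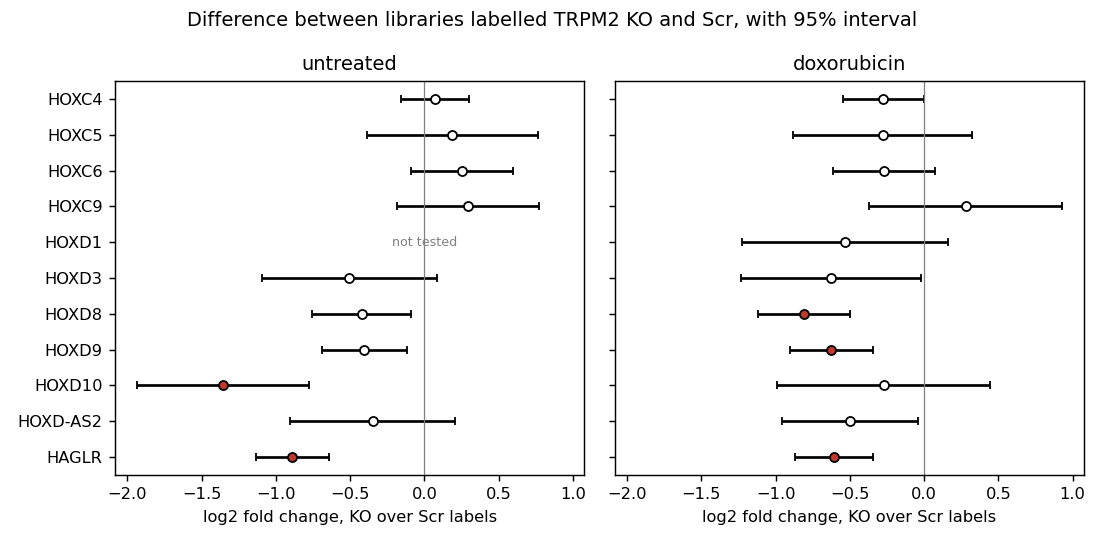
Log2 fold change on the log2(CPM + 1) scale of libraries labelled TRPM2 KO over Scr libraries, with the 95% interval from limma, for the HOX genes tested and 2 antisense RNAs of the HOXD cluster; red points passed an adjusted p of 0.05, and untreated HOXD10 entered the fit only through the Scr libraries. HOXD8 after doxorubicin is at -0.81 with its interval below 0, and the HOXC intervals cross 0 except that of HOXC4 after doxorubicin, which ends just below 0.

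HAGLR, a long noncoding RNA (chr2:176164051-176188958, minus strand) that runs antisense from the HOXD1 promoter into the HOXD3 gene model, was lower in both treatments. In untreated cells it was at 16.0 and 17.0 CPM in KO11 and at 17.6 and 19.2 CPM in KO28, against 32.6 and 31.1 CPM in Scr13 and 34.2 and 34.5 CPM in Scr16. The groups were far apart, with a difference of -0.89 (SE 0.119) and an adjusted p of 4.70e-05 in limma. After doxorubicin it was at 27.4 and 21.9 CPM in KO11 and at 32.1 and 26.6 CPM in KO28, against 48.2 and 37.3 CPM in Scr13 and 40.8 and 39.7 CPM in Scr16. The groups did not overlap there either, with a difference of -0.61 (SE 0.127, adjusted p = 0.00268), which was lost without clone KO11 (-0.49, adjusted p = 0.101). The RefSeq starts of HAGLR lie 96, 290, 399 and 10539 bases from that of HOXD1, and 2 of its windows share 195 and 102 bases with the HOXD1 window printed above, including the CACGTG marked there in the first of them. The kit marks strand, but the strand setting of the counting is not given in the sources used here, so reads of HAGLR and of HOXD1 or HOXD3 may not be fully told apart.

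HAGLROS, the transcript opposite HAGLR, had 0 reads in all 8 libraries labelled TRPM2 KO and 31 reads in the 8 Scr libraries, none of which was at 0. Pooled over the libraries, its Scr level was 9.69 times a floor of 3 reads over the libraries labelled TRPM2 KO. This ratio rests on few reads. It covers neither the counting error of the Scr reads nor the spread between libraries and clones. HOTAIR, the antisense RNA of the HOXC cluster, had 13 reads in the libraries labelled TRPM2 KO, 5 of which were at 0, and 0 reads in the Scr libraries. The first untreated KO11 library held 10 of these 13 reads. HOXD-AS2, whose span on the opposite strand holds HOXD9 and HOXD8, was at -0.35 (adjusted p = 0.637) in untreated cells and at -0.50 (adjusted p = 0.202) after doxorubicin. Thus 1 of the 2 cluster RNAs tested, HAGLR, was called in each treatment, where 4.84% (untreated) and 8.69% (doxorubicin) of all genes were called.

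Among the TALE cofactors, 1 of 6 genes tested was called in untreated cells and 2 of 6 after doxorubicin, all lower in the libraries labelled TRPM2 KO, while 2.54% and 4.17% of all genes were called lower. PBX3 was at 61.2 to 72.4 CPM against 81.1 to 91.6 CPM in Scr libraries when untreated, a difference of -0.35 (SE 0.083, adjusted p = 0.0148). After doxorubicin it was at 53.6 to 57.5 CPM against 75.6 to 106.5 CPM, a difference of -0.65 (SE 0.097, adjusted p = 9.12e-05). The groups did not overlap in either treatment. MEIS2 was at 375 to 400 CPM against 500 to 527 CPM after doxorubicin, a difference of -0.39 (SE 0.067, adjusted p = 3.75e-04). The median difference over the 6 cofactors was -0.092 in untreated cells and -0.048 after doxorubicin.

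**Figure D5:**
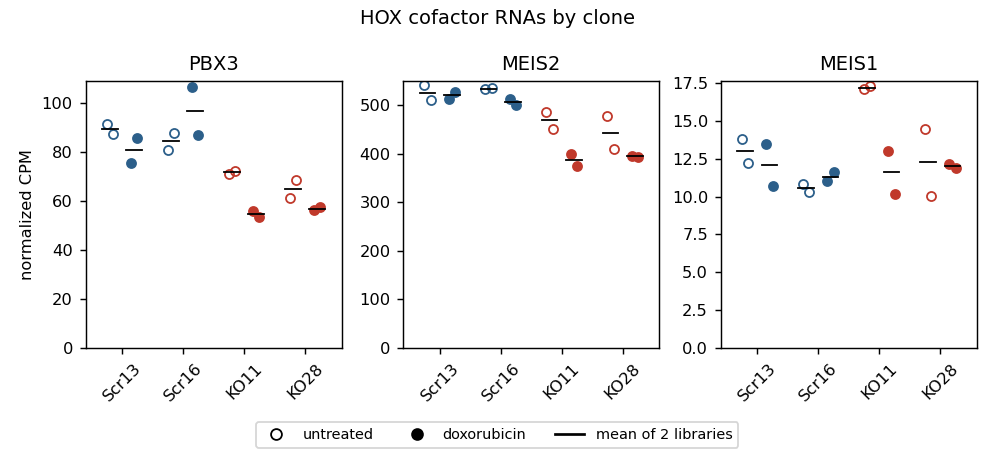
Normalized CPM of PBX3, MEIS2 and MEIS1 in each clone, with 1 point per library, open for untreated and filled for doxorubicin, and a black line at the mean of 2 libraries. After doxorubicin PBX3 and MEIS2 are lower in both clones labelled TRPM2 KO than in both Scr clones, with PBX3 between 53.6 and 57.5 CPM, whereas MEIS1 overlaps.

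Chromatin regulators of the clusters were read against the 4.84% of all genes called in untreated cells and the 8.69% called after doxorubicin, and at these list sizes their counts do not set them apart. Of 17 Polycomb genes tested, 0 were called by limma in untreated cells, with 0 at an unadjusted p under 0.05, and 1 after doxorubicin, PHF19, a partner of the histone methyltransferase complex, which was lower (-0.33, SE 0.104, adjusted p = 0.0484). Of 13 trithorax and related activators, 1 was called, the H3K27 demethylase KDM6B, higher in untreated cells (0.31, SE 0.069, adjusted p = 0.00822). None of 6 insulation genes (CTCF and cohesin) and none of 10 genes flanking HOX clusters was called by limma. At an unadjusted p under 0.05 were 0 of either list in untreated cells and 2 and 1 after doxorubicin. The flanking list also holds SKAP2, HIBADH and TAX1BP1 on chromosome 7, which do not lie beside HOXC or HOXD. MTX2 and LNPK, which border the HOXD cluster, were among the flanking genes that were not called. In untreated cells the MTX2 groups did not overlap, and it was lower by -0.17 (SE 0.085, adjusted p = 0.383 in limma). Groups without overlap were found for 9.29% of all genes tested there.

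The retinoic acid list had 1 gene higher and 2 lower of 8 tested in each treatment, while 4.84% and 8.69% of all genes were called in either direction. CRABP2, which carries retinoic acid to its nuclear receptors, was at 5.18 to 7.24 CPM against 25.3 to 38.2 CPM when untreated and at 7.35 to 8.89 CPM against 61.9 to 84.3 CPM after doxorubicin. The differences were -2.18 (SE 0.163, adjusted p = 3.04e-08 in limma) and -3.06 (SE 0.137, adjusted p = 5.38e-12), and the groups were far apart in both treatments. ALDH1A3, which makes retinoic acid, was lower by the same comparison, at -1.35 (SE 0.256, adjusted p = 0.00216) and -1.05 (SE 0.210, adjusted p = 0.00186). RARA, a retinoic acid receptor, was higher, at 0.43 (SE 0.107, adjusted p = 0.0194) and 0.44 (SE 0.088, adjusted p = 0.00195). Of 6 other homeobox genes tested, 1 was called after doxorubicin, MSX2, which was higher (0.45, SE 0.108, adjusted p = 0.00846), where 8.69% of all genes were called.

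The cell type labels were checked against marker lists. The 11 sympathetic neuroblast markers summed to 7779 to 8788 CPM in untreated libraries labelled TRPM2 KO and to 7541 to 8349 CPM in untreated Scr libraries, and to 8126 to 8814 CPM and 8262 to 8920 CPM after doxorubicin. Of the 10 tested, limma called GATA3 higher in untreated libraries labelled TRPM2 KO (0.32, adjusted p = 0.0344), and CHRNA3 (0.45, adjusted p = 1.93e-04) and HAND1 (0.40, adjusted p = 0.00248) higher after doxorubicin, while 2.3% and 4.52% of all genes were called higher. STMN2 was its highest gene per length in all 4 groups, and DBH was at 1204 to 2140 CPM in all 16 libraries, whereas TH, the first enzyme of catecholamine synthesis, was at 0 to 1.13 CPM. The 10 mesenchymal markers with a row summed to 754 ± 87.0 and 549 ± 126 CPM in untreated cells and to 825 ± 122 and 559 ± 81.1 CPM after doxorubicin (SD, n = 4 each; labelled TRPM2 KO first). The highest gene of the list per length was TWIST1 in all 4 groups, and it was lower in the libraries labelled TRPM2 KO (-0.53 and -0.64). Besides LUM, a matrix proteoglycan, 4 of these markers were called higher in untreated cells, COL3A1 and YAP1 among them, and 5 after doxorubicin, beside the same 2.3% and 4.52% of all genes. LUM passed the filter after doxorubicin only through the libraries labelled TRPM2 KO, and when untreated through these 4 and 1 Scr library, so its calls are no support; it was at 8.24 to 12.6 CPM against 0.511 to 3.15 CPM when untreated. The first untreated Scr13 library stood apart from the other Scr libraries with 139 CPM of COL3A1, and its HOXD8 and HOXD9 levels of 18.2 and 29.4 CPM lay with those of the other Scr libraries. No marker of the list with a row was at 0 in all libraries, and PRRX1 and POSTN had no row. The part of these markers in the HOXD differences was not tested.

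No HOX gene was called between clones of the same label. Of the 10 HOX genes tested over all 16 libraries, limma called 0 between KO28 and KO11 and 0 between Scr16 and Scr13, with 0 and 1 (HOXD1, -0.73, adjusted p = 0.599) at an unadjusted p under 0.05, and edgeR and DESeq2 called 0 as well. The background was low too, at 0.0522% and 0.0131% of genes called, so this comparison called few genes of any kind. HOXD8 differed by 0.13 (95% interval -0.17 to 0.42) between KO28 and KO11 and by -0.22 (95% interval -0.51 to 0.078) between Scr16 and Scr13. These values average over both treatments. HOXD8 had means of 15.7 CPM in KO28 and 11.4 CPM in KO11 when untreated, and of 12.3 and 13.9 CPM after doxorubicin. HOXC6 turned in the same way, from 17.1 and 12.5 CPM to 12.4 and 15.5 CPM. For HOXD8 the Scr16 mean was below the Scr13 mean in both treatments. Clone differences within a treatment were not tested. When the 2 libraries of each clone were averaged and clones were compared, HOXD8 (adjusted p = 0.0105 in limma) and HOXD9 (adjusted p = 0.0183) were still called after doxorubicin.

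Doxorubicin against untreated cells gave 1 call. HOXD1, a low-numbered gene that retinoic acid induces, rose in Scr libraries by 0.99 (SE 0.317, adjusted p = 0.0397 in limma), where 12.3% of genes were called. Its values were 1.54 and 0.691 CPM in untreated Scr13, 5.29 and 2.46 CPM in treated Scr13, 0 and 1.02 CPM in untreated Scr16, and 1.14 and 1.88 CPM in treated Scr16. The groups overlapped, the first treated Scr13 library was the highest, and without it the difference was 0.77 with an adjusted p of 0.204. edgeR and DESeq2 did not call HOXD1 (adjusted p = 0.169 and 0.0969), and called HOXC6, which was at 0.45 (SE 0.157) with an adjusted p of 0.0576 in limma and did not overlap between treatments. HOXD8 was at 0.36 (SE 0.144, adjusted p = 0.101), a gene that DESeq2 also called.

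In the libraries labelled TRPM2 KO limma called none of the 10 HOX genes after doxorubicin, with 1 at an unadjusted p under 0.05, while 17.4% of all genes were called; edgeR called 0 and DESeq2 called 1. That gene was HOXD10, with means of 0.332 and 1.40 CPM in untreated and treated libraries, a difference of 0.82 (SE 0.294) and an adjusted p of 0.0537. HOXD8 and HOXD9 were at -0.024 (95% interval -0.32 to 0.27) and -0.010 (95% interval -0.28 to 0.26). For both genes the means of the clones moved in opposite directions. With doxorubicin, mean HOXD8 went from 11.4 to 13.9 CPM in KO11 and from 15.7 to 12.3 CPM in KO28. Mean HOXD9 went from 19 to 20.6 CPM in KO11 and from 24.4 to 22 CPM in KO28. HAGLR rose by 0.59 (SE 0.120, adjusted p = 8.53e-04) and was at 0.31 (SE 0.120, adjusted p = 0.0923) in Scr libraries.

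The difference between the doxorubicin responses, labelled TRPM2 KO minus Scr, passed for none of the 10 HOX genes in limma, edgeR or DESeq2, with 2 at an unadjusted p under 0.05, and 0.0196% of all genes were called. HOXD10 was at 1.09 (SE 0.415, adjusted p = 0.482) and HOXC6 at -0.53 (SE 0.222, adjusted p = 0.529). HOXD8 was at -0.39 (95% interval -0.81 to 0.030) and HOXD9 at -0.22 (95% interval -0.60 to 0.16). The calls of HOXD8 and HOXD9 after doxorubicin and not before it are therefore not shown to differ between the treatments, and the same holds for the call of HOXD10 in untreated cells.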

How the data were processed

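The deposited tables, one for untreated and one for doxorubicin libraries, hold per gene a normalized CPM signal in each of 8 libraries. Per the labels, the authors used a directional poly(A) kit, and the submitters' processing notes name HISAT2 2.1.0, HTSeq, edgeR and GRCh38; the strand setting is not given in the sources used here. The deposited CPM signal divides gene counts by an effective library size, and whole reads were recovered for 100% of values (tolerance 0.001 reads), giving 10481177 to 25086085 reads per library. Columns with the authors' p-values, q-values, fold changes and ranking were not used. Groups came from the sample labels, and replicates are libraries of 1 clone.

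Names, positions and exon lengths came from GENCODE 29, and promoters from RefSeq GRCh38.p14 (9 of 15 members matched). Values were tested as log2(CPM + 1) with limma 3.58.1 in R 4.3.3 (trend, Benjamini-Hochberg over all genes tested, threshold 0.05), on genes at 1 CPM or more in at least 4 libraries of the fit. Genotypes were compared within each treatment (8 libraries, 14364 and 14572 genes), and doxorubicin, clones and the interaction in 1 fit of 16 libraries (15325 genes). Single HOX genes were also compared by an exact permutation test. Alternatives were edgeR 4.0.16 and DESeq2 1.42.0 on recovered reads, other filters, pseudocount and scaling, a replicate or clone block, clone means, and leaving out libraries or clones. The code was tested on simulated data. TRPM2 and all HOX genes at 1 CPM or more in 4 of 16 libraries were named, with values per library for those called, and up to 3 called genes per list. Members and lists were chosen with earlier results of these data known. A few genes of the lists are not reported here and were left out of the list counts and sums.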

Additional observations from a re-analysis of the deposited data

Results flagged for a closer look

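Groups of 4 libraries were screened for a library whose gap to its nearest neighbour exceeded Dixon's 95% critical share of the group's range. Of 44 groups, 2 were flagged, and chance flags about 1 in 20. HOXD9 was at 29.1 CPM in the first untreated KO28 library, against 18.6 to 19.6 CPM in the other untreated libraries labelled TRPM2 KO, with a gap of 0.904 of the range. HOXC10 was at 1.24 CPM in the first doxorubicin-treated Scr16 library, against 0 to 0.0649 CPM in the other treated Scr libraries, with a gap of 0.948 of the range. This library was the shallowest, with 10481177 reads, and also held the highest HOXD10 and HOXD13 values, 4.09 and 3.61 CPM.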

How the results depend on the processing

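HOXD8 after doxorubicin was called in 21 of 21 alternatives and HOXD9 in 19 of 21. The HOXD1 call with doxorubicin in Scr libraries was kept in 11 of 22 alternatives and lost in 11. HOXD10 in untreated cells was called with no filter (adjusted p = 0.0186), but passed the filter only through the Scr libraries. Over HOX genes and HAGLR, 398 of 421 alternative values kept their direction and call, 14 lost the call, 3 gained it and 6 reversed. Alternatives in which a gene was not tested are not among the 421, and untreated HOXD10 was tested in only 14. For a gene not called in the main fit, keeping the call means that it was again not called. Where no test shows it, the cause was not tested.

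The count of HOX genes called between genotypes in untreated cells was 0 with at least 10 reads in every library, 0 without clone Scr13, 0 without clone Scr16 and 3 without clone KO28, and 0 to 2 with 1 library left out. After doxorubicin it was 1 without clone KO11 and 1 without clone Scr16. Counts over all genes in untreated cells were 368 with no filter, 330 without clone Scr13 and 327 without clone Scr16 (508 to 678 with 1 library left out), and after doxorubicin 510 without clone KO11 and 575 without clone KO28 (814 to 1314).

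Signs reversed at HOXC4 in untreated cells (-0.014 without clone KO28), at HOXC9 after doxorubicin (-0.10 without the first Scr16 library, -0.026 without clone Scr16) and at HOXD10 after doxorubicin (0.018 without the first Scr16 library, 0.036 without clone KO11, 0.21 without clone Scr16); none of these was called, and with 1 library left out the latter pair ranged from -0.10 to 0.46 and from -0.51 to 0.018.

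Between KO28 and KO11, 2 genes were called with no filter, 13 with at least 10 reads and 51 by DESeq2 (0 to 13 with 1 library left out); between Scr16 and Scr13 these were 4, 1 and 10, and 4 by edgeR (1 to 27). For doxorubicin in Scr libraries the HOX count was 0 with a pseudocount of 0.25, 0 with no filter and 2 by DESeq2 (0 to 2 with 1 library left out), and the count over all genes 1242 with no filter (1179 to 2270). In libraries labelled TRPM2 KO the HOX count was 1 with a pseudocount of 0.25 and 1 by DESeq2 (0 to 1), and over all genes 1773 to 2870 with 1 library left out. The interaction gave 5 genes by edgeR and 58 by DESeq2 (1 to 18 with 1 library left out).

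Replicate numbers did not pair the libraries, with correlations of deviations between -0.106 and 0.128. With the replicate block, 15 genes were called between KO28 and KO11, 5 between Scr16 and Scr13 and 22 for the interaction, and no HOX call changed. Replicates of a clone differed beyond counting noise (chi-square of 7.79 to 16.9 per gene). For genes under 1 CPM, depth limits what can be compared.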
